A study of Homo sapiens with 6 samples.

Results

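The HOX genes and the noncoding RNAs transcribed from the same clusters were followed in NCI-H1299, an established line from a human lung tumour that lacks p53. Members were all genes of the authors' deposited table whose symbol begins with HOXA, HOXB, HOXC or HOXD, together with HOTAIR, HOTTIP, HOTAIRM1, HAGLR and HAGLROS. The table held 27 of them among 25287 genes, 21 protein-coding and 6 noncoding. RefSeq names 59 genes under the same rule, 39 of them numbered HOX genes, and the 32 without a row, HOTAIR, HOTTIP and HAGLROS included, were not analysed here. The HOXA cluster was represented by 8 members, HOXB by 6, HOXC by 5 and HOXD by 8.

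Total RNA was sequenced from 6 libraries in 2 groups of 3. One group carried a control hairpin (shControl, called puro in the series' design text) and the other a short hairpin RNA against ALDH18A1 (shALDH18A1), which encodes P5CS, a mitochondrial enzyme of proline synthesis. Both groups were the same cell line, grown in RPMI1640 medium with fetal bovine serum, and the labels say neither how many hairpin sequences were used nor whether the libraries within a group stem from separate cultures. The p-values may therefore measure technical spread only. The question is how transcript levels differ between cells with and without the hairpin against ALDH18A1.

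HOX genes encode homeodomain transcription factors that give cells their position along the body axis. They lie in 4 clusters, numbered so that genes of the same number in different clusters (paralogues) are most alike, with low numbers at the end expressed early and towards the head and high numbers at the end expressed late and towards the tail. Adult cells and tumour lines often keep a HOX pattern that reflects their origin, held by Polycomb and Trithorax chromatin complexes, and antisense RNAs such as HOTAIRM1 are transcribed from between the genes.

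For each gene the authors' deposited table gives 1 mean normalized count over the libraries, 1 log2 fold change and 1 standard error (SE). No values per library were used, so neither the depth of each library nor the overlap between groups can be given. The header does not name the group in the numerator, and ALDH18A1 itself did not pass the threshold in the authors' deposited table (log2 fold change -0.08, SE 0.07, adjusted p = 0.471). Its mean count was 2661, and its 95% interval, from -0.22 to 0.07, leaves out a full log2 unit in either direction. These RNA values therefore do not show that the hairpin lowered its target. Values are given by their sign, positive side or negative side, and no group is assigned to either. A member was called when its adjusted p was under 0.05. Where means of the 2 groups are given, they were computed from the mean count and the fold change with 3 libraries a group, and "numerator" stands for the group whose name the table leaves out. Of the markers checked for this line, the cytokeratin gene KRT8 had a mean normalized count of 18965 and the mesenchymal filament gene VIM 24591 in the authors' deposited table. That table listed 6 of 10 lung epithelial and adenocarcinoma markers, among them SFTPB at a mean of 4.49, and the 6 summed to 38383 in the numerator group and 28208 in the other. KRT18 (0.61, mean 14244) and KRT8 (0.32) were called positive in the authors' deposited table and make up nearly all of both sums. These sums therefore describe KRT8 and KRT18 and not the 6 markers alike. EPCAM, CDH1 and KRT7, with means of 41.4, 24.2 and 16.9 in the authors' deposited table, and SFTPB were not called. EPCAM and SFTPB had positive values there, and CDH1 and KRT7 negative ones. NKX2-1 and NAPSA were not analysed here. Fibroblast markers, all 4 listed, summed to 357 in the numerator group and 215 in the other, computed from the authors' deposited table. Of these, PDGFRB (1.12) and DCN (2.54) were called positive, while COL1A1 (-0.17) and LUM (-0.57) were not called. Blood markers, 2 of 4 listed, summed to 12.3 and 17.7 in the same order. Mesenchymal markers, 4 of 4 listed, summed to 29812 and 35701, a difference in the direction of VIM (-0.48), while FN1 (1.10) and ZEB1 (0.24) were called positive in the authors' deposited table. Of 4 squamous markers TP63 was the one listed, at a mean of 41.0 and not called, by the authors' deposited table. The part of such cells in the HOX values was not tested. In bulk RNA, fewer cells that express a gene and less RNA per cell cannot be told apart.

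The HOX clusters did not move in one direction. The authors' deposited table called 17 of the 27 members, where 42.4% of all 25287 genes were called. Of these, 10 were positive and 7 were negative, against 20.9% and 21.5% of all genes in the authors' deposited table. The other 10 members were not called. Among the largest called values were those of HOXD10 (2.84) and the antisense RNA HOXC-AS3 (2.43) among positive members, and HOXB13 (-1.42) and HOXD1 (-1.40) among negative ones, in the authors' deposited table. Among called members, 10 had a log2 value of 1 or more in size, 7 positive and 3 negative, against 10.9% and 7.06% of all genes in the authors' deposited table. Among the 17 called members the adjusted p closest to 0.05 was 0.0161 (HOXA13), and among the others it was 0.12 (HOXC12), in the authors' deposited table.

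Mean counts divided the members in a way that bears on these calls. None of the 5 members with a mean count under 10 was called, against 4.21% of all such genes in the authors' deposited table. Of those with more counts, 8 of 13 between 10 and 100 were called, where 26.7% of all genes in that range were in the authors' deposited table. Every one of the 9 members with a mean count of at least 100 was called, against 65.1% of genes between 100 and 1000 and 83.3% of genes above that in the authors' deposited table. The sides also differed with the level. Of 8 called members under a mean of 100, 7 were positive and HOXD1 was the negative one, while of 9 above it 3 were positive and 6 negative by the authors' deposited table. All genes with means of 10 to 100 were called positive in 16.5% and negative in 10.2% of cases, those of 100 to 1000 in 35.0% and 30.0%, and those of 1000 or more in 33.2% and 50.0%, in the authors' deposited table.

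**Figure D1:**
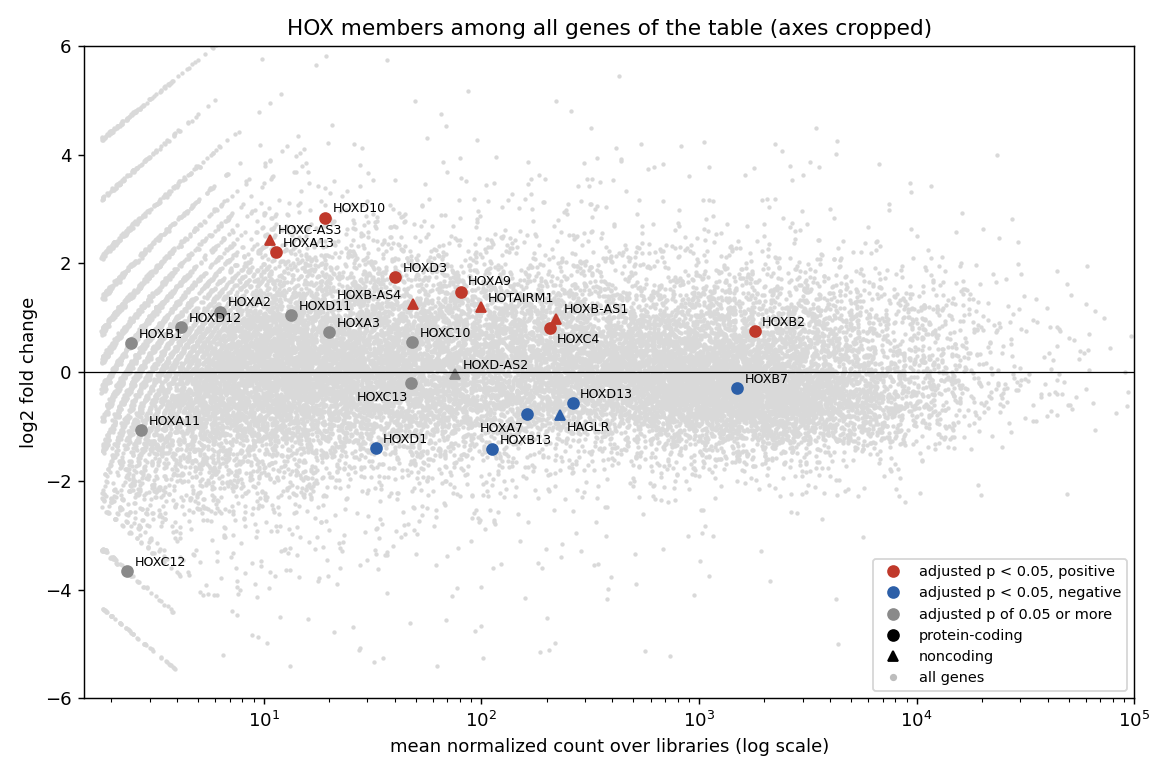
Log2 fold change (vertical axis) against mean normalized count (horizontal, log scale) for all genes of the authors' deposited table (grey) and 26 HOX members (red called positive, blue called negative, dark grey not called; circles protein-coding, triangles noncoding). HOXB2 and HOXB7 stand at the right on opposite sides of 0, and no member under a mean count of 10 is coloured.

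HOXB genes carried most of the HOX reads. HOXB2 and HOXB7 held 61.4% of the summed mean counts of all members, computed from the authors' deposited table. Per kilobase of GENCODE exon, mean counts computed from that table were 984 for HOXB7 and 775 for HOXB2. They were 142 for HOXB-AS1 and 117 for HOXD13, on the same scale and from the same table. Members as a whole made up 0.0125% of the table's summed mean counts.

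Low-numbered genes, those of the head end, were called on both sides. HOXD1, at the head end of the HOXD cluster, lay at -1.40 (SE 0.47, adjusted p = 0.00776) by the authors' deposited table, from computed group means of 18.0 in the numerator group and 47.4 in the other. Its interval ran from -2.32 to -0.48, by the SE of the authors' deposited table. HOXB1 had a mean count of 2.46 and an interval from -2.93 to 3.998 computed from the authors' deposited table, which leaves its direction undetermined.

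HOXB2, HOXD3 and HOXC4, the called members of groups 2 to 4, lay on the positive side, unlike HOXD1. Over all genes 20.9% were called positive and 21.5% negative, and no pattern by position is drawn from so few members. HOXB2, a hindbrain gene with the highest mean count of the members, had a mean of 1809.7 and a log2 fold change of 0.75 (SE 0.10, adjusted p = 6.61e-13) by the authors' deposited table. Its computed group means were 2271 in the numerator group and 1348 in the other. It lies at chr17:48540894-48544989 on the minus strand (GRCh38, GENCODE release 29, as are the other gene positions). HOXD3 lay at 1.75 (SE 0.48, adjusted p = 0.00098), with a mean count of 40.2, and HOXC4 at 0.80 (SE 0.21, adjusted p = 0.000346), with a mean of 206, in the authors' deposited table. HOXA2, which sets the identity of the second pharyngeal arch, and HOXA3, needed for the thymus in the mouse, were not called. The computed group means of HOXD3 were 61.9 and 18.5, and those of HOXC4 were 262 and 150.4, numerator group first. The values of HOXA2 and HOXA3, 1.11 (SE 1.10) and 0.74 (SE 0.57), came from mean counts of 6.33 and 20.1 in the authors' deposited table. Over the 8 listed genes of groups 1 to 4 the median was 0.74 in the authors' deposited table, against 0.03 for all genes.

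Among groups 5 to 8 the table held HOXA7 and HOXB7, which take part in patterning the trunk, and both were called negative. Of all genes, 30.0% with means of 100 to 1000 and 50.0% with means of 1000 or more were called negative. HOXB7 had a mean normalized count of 1504 and a log2 fold change of -0.30 (SE 0.09, adjusted p = 0.00256) by the authors' deposited table. Its difference was the smallest of the called members, 1.23-fold, with computed group means of 1347 in the numerator group and 1660.5 in the other. Its gene spans chr17:48607227-48633572 on the minus strand. HOXA7 had a mean of 162, with computed group means of 120.3 and 204, and lay at -0.76 (SE 0.22, adjusted p = 0.00188) by the authors' deposited table.

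The 11 listed genes of groups 9 to 13 were split, 3 positive, 2 negative and 6 not called in the authors' deposited table. The called share of these genes, 45.5%, is near the 42.4% of all genes there, of which 20.9% were positive and 21.5% negative. HOXA9, which acts in blood progenitors and is known for its part in leukaemia, had a mean count of 80.5 and a log2 fold change of 1.47 (SE 0.30, adjusted p = 4.16e-06) by the authors' deposited table. Its computed group means were 118 in the numerator group and 42.8 in the other. HOXD10, a gene of hindlimb motor neurons, had the largest called value, 2.84 (SE 0.66, adjusted p = 6.75e-05), by the authors' deposited table. It did so at a low level, with a mean count of 19.2 and computed group means of 33.6 in the numerator group and 4.69 in the other. It lies at chr2:176108790-176119942 on the plus strand. HOXC10, its paralogue, lay at 0.55 (SE 0.35, adjusted p = 0.223) by the authors' deposited table, and its interval from -0.14 to 1.24 did not overlap that of HOXD10, from 1.54 to 4.14. No test of that difference was made.

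All 4 genes of group 13, which shape the hindmost structures, the digits and the genital tract, had a row, and they did not share a side. HOXA13 lay at 2.21 (SE 0.81, adjusted p = 0.0161) from a mean count of 11.4 in the authors' deposited table. HOXB13, a prostate lineage gene, lay at -1.42 (SE 0.24, adjusted p = 2.05e-08) from a mean of 112 in the authors' deposited table. HOXD13, with a mean of 263, lay at -0.57 (SE 0.20, adjusted p = 0.0108) by the authors' deposited table. Computed group means, numerator group first, were 18.7 and 4.04 for HOXA13, 61.0 and 163 for HOXB13, and 212 and 314 for HOXD13. HOXC13, which drives hair keratin genes, was not called at -0.20 (SE 0.38, adjusted p = 0.746) by the authors' deposited table. Its interval, from -0.94 to 0.55, leaves out a full log2 unit in either direction. HOXD11 (1.04, SE 0.66), HOXD12 (0.83, SE 1.31), HOXA11 (-1.07, SE 1.55) and HOXC12 (-3.66, SE 1.93) had mean counts of 13.4, 4.19, 2.74 and 2.37 in the authors' deposited table, and none was called. The value of HOXC12 lies on a line of low-count genes in the plot against mean count and has an interval from -7.44 to 0.12, so no fold is drawn from it.

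**Figure D2:**
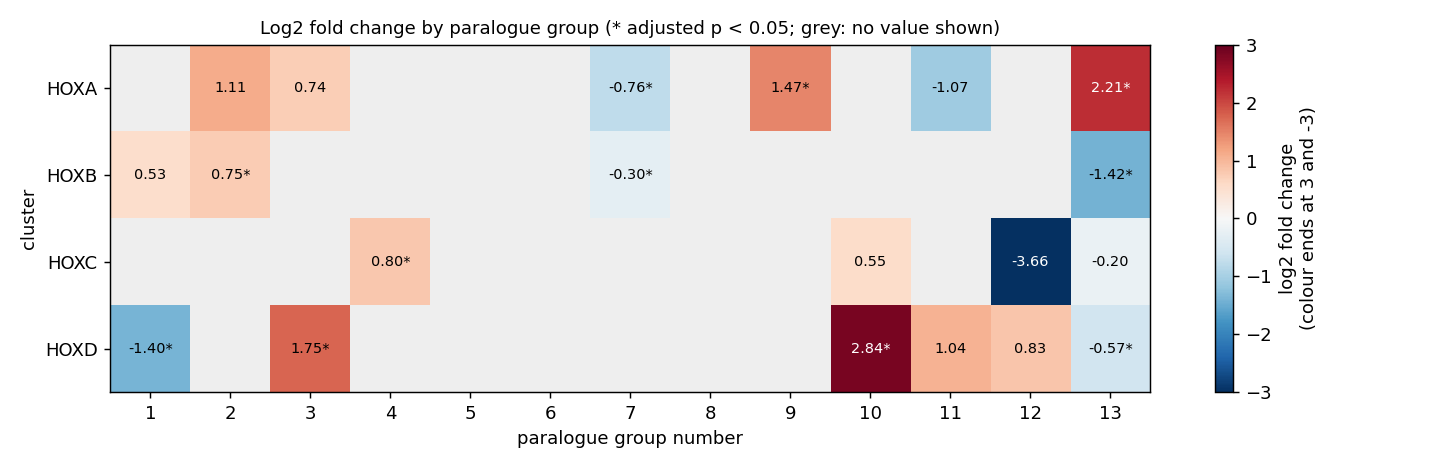
Log2 fold change in the authors' deposited table for 20 protein-coding HOX genes, by cluster (rows) and paralogue group number (columns); red is positive, blue negative, an asterisk marks an adjusted p under 0.05, and grey cells have no value shown. HOXD1 is blue, group 7 is blue in both listed genes, and group 13 is red for HOXA13 but blue for HOXB13 and HOXD13.

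Pooled over the clusters, paralogue number and fold change showed no monotone relation. Across the 21 protein-coding members Spearman's rho between paralogue number and log2 fold change was -0.00065, a description over genes that share libraries. No such value was computed within each cluster, so the pooled value does not describe an order along a single cluster. The medians computed from the authors' deposited table were 0.74 for groups 1 to 4, -0.53 for the 2 genes of groups 5 to 8 and 0.55 for groups 9 to 13. By cluster they were 0.92 for HOXA, 0.64 for HOXB, 0.55 for HOXC and 0.40 for HOXD, and each cluster but HOXC had called members on both sides of the authors' deposited table. The middle members behind these medians are HOXA2 and HOXA3, HOXB1 and HOXB2, HOXC10, and HOXD12 and HOXD-AS2. All of them but HOXB2 were not called, so the order of the medians rests in part on undetermined values. Medians turned negative for HOXA, HOXD and groups 9 to 13 among members with a mean count of at least 100, each of which then rests on 2 genes. With protein-coding members alone the medians were 0.12 for HOXB, 0.18 for HOXC and 0.94 for HOXD. HOXA had 3 positive and 2 negative members, HOXB 3 and 2, and HOXD 2 and 3, in the authors' deposited table. HOXC had 2 positive members, HOXC4 and HOXC-AS3, and no negative one. The called share was 62.5% in HOXA, 83.3% in HOXB, 40.0% in HOXC and 62.5% in HOXD, against 42.4% of all genes. Members with means of at least 100 numbered 2, 4, 1 and 2 in the same order. Of all genes, 65.1% with means of 100 to 1000 and 83.3% with higher means were called. Clusters were not tested against each other, because genes of a cluster are not replicates. Sums of counts gave another order than medians, since abundant members weigh more. The log2 ratio of summed group means, computed from the authors' deposited table, was -0.43 for HOXA, 0.27 for HOXB, 0.62 for HOXC and -0.37 for HOXD. HOXA and HOXD thus had a positive median and a negative ratio of sums.

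**Figure D3:**
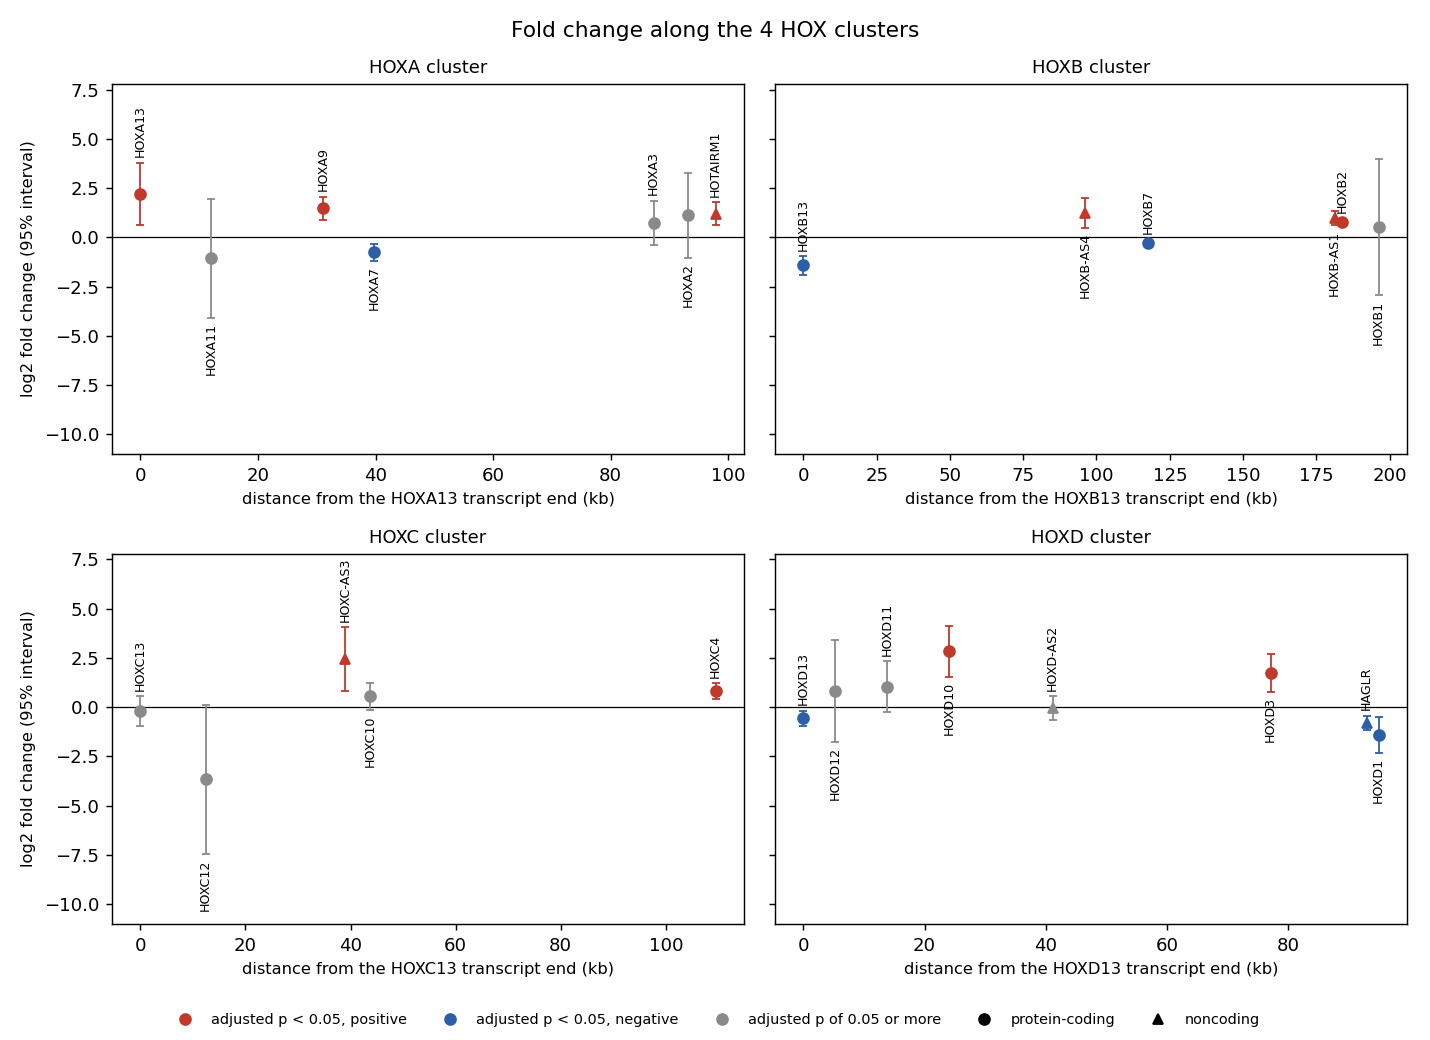
Log2 fold change with its 95% interval (1.96 SE) in the authors' deposited table, against the distance in kilobases from the transcript end of the group 13 gene, for each cluster; protein-coding genes (circles) are placed at their transcript end and noncoding RNAs (triangles) at their start. Red and blue points, called positive and negative, are interleaved along HOXA and HOXB, and HOXD ends with HAGLR and HOXD1 both below 0.

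Some neighbours lay on opposite sides. Along the clusters there were 23 pairs of adjacent listed members, and in 8 of them both were called in the authors' deposited table. In 6 of these 8 pairs the members lay on opposite sides. Their 95% intervals then cannot overlap, because the interval of a called member stays on that member's side. None of the 6 was in the HOXC cluster and 1 was in HOXD. Over all 21825 genes of the authors' deposited table that could be placed in the same way, 22.0% of adjacent pairs had both genes called, and 44.5% of those lay on opposite sides. With 8 pairs that share members, no test was made. Among them were HOXA9 and HOXA7, HOXB13 and HOXB-AS4, HOXB-AS4 and HOXB7, HOXB7 and HOXB-AS1, and HOXD3 and HAGLR. The pairs on one side were HOXB-AS1 with HOXB2 and HAGLR with HOXD1. Pairs of members skip listed genes that are not members, such as the noncoding LINC02086 between HOXB-AS4 and HOXB13. The share over all genes pairs every placed gene, so it is not a like measure. Genes without a row can also lie between such neighbours.

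The promoters of HOXA7 and HOXA9 are shown because these protein-coding neighbours were called on opposite sides, and those of HOXD1 and HOXD10 because they are the most negative and the most positive called genes of the HOXD cluster. Each runs from 250 bases before to 50 bases after the RefSeq start (GRCh38.p14), 5′ to 3′ on the gene's strand. Capitals mark every match, on either strand, to the TATA box TATAAA, the CCAAT box, the GC box GGGCGG, the nuclear receptor motif AGGTCA or the PBX-HOX motif TGATNNAT.
HOXA7, chr7:27156626-27156925, minus strand: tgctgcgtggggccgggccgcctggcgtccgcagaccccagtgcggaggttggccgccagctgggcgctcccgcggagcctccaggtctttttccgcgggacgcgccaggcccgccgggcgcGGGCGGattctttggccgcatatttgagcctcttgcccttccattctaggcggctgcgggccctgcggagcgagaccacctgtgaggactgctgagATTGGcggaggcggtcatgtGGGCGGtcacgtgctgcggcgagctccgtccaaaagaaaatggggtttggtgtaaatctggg
HOXA9, chr7:27165488-27165787, minus strand: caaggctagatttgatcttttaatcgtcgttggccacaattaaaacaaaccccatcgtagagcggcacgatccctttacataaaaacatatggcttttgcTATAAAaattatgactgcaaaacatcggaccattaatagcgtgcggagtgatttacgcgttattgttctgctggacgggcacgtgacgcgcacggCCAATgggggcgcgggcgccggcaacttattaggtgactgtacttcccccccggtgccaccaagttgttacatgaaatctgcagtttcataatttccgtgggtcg
HOXD1, chr2:176188418-176188717, plus strand: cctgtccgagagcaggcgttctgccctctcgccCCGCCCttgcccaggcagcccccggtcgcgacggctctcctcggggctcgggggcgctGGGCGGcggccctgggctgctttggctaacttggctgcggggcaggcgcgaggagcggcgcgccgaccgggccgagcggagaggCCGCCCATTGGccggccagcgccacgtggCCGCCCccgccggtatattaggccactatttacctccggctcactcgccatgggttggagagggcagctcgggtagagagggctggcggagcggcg
HOXD10, chr2:176116528-176116827, plus strand: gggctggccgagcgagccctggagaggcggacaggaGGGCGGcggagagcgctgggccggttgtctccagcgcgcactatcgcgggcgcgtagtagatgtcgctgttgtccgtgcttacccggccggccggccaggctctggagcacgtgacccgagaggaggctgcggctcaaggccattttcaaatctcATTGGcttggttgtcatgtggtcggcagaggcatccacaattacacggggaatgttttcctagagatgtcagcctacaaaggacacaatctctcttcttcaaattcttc

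The HOXA9 window is the one of these 4 with a TATAAA match, on its own strand at base -150 from the start. Whether that match acts as a TATA box was not tested. The HOXA9 window has a G+C content of 48.0% and 22 CG dinucleotides. The HOXA7 window holds 2 GGGCGG matches at 68.0% G+C and 31 CG dinucleotides. HOXD1 has 4 GGGCGG matches, 1 of them directly before a CCAAT match, so that both appear as 1 capital run, at 74.3% G+C. HOXD10 has 1 match to GGGCGG and 1 to CCAAT at 60.0% G+C. RefSeq promoter records, 28 in all, were found for 18 of the 27 members. A CCAAT match stood in 16 of these 28 records (57.1%), against 34.6% of 34943 promoters of the same length, and a GGGCGG match in 15 (53.6%) against 44.9%. TATAAA stood in 4 records (14.3%) against 11.6%, and TGATNNAT in 3 (10.7%), those of HOXA2, HOXB1 and HOXD11, against 7.42%. AGGTCA was found in 0 of the 28 records, and in 13.8% of all promoters. These counts describe letters in the windows, and several records belong to the same gene.

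Noncoding RNAs of the clusters were called in 5 of 6 cases, 4 positive and 1 negative, by the authors' deposited table. Of the 6, 4 had mean counts under 100 and 2 between 100 and 1000, ranges in which 26.7% (means of 10 to 100) and 65.1% of all genes were called in the authors' deposited table. HOTAIRM1, a myeloid RNA of the HOXA cluster, had a mean count of 99.6 and a log2 fold change of 1.19 (SE 0.29, adjusted p = 0.000162) by the authors' deposited table. Its computed group means were 139 in the numerator group and 60.6 in the other. HOXB-AS1, transcribed across the start of HOXB2, lay at 0.98 (SE 0.18, adjusted p = 3.02e-07) from a mean of 221 in the authors' deposited table, on the side of HOXB2. HOXB-AS4, which begins within the HOXB7 locus on the other strand, lay at 1.25 (SE 0.38, adjusted p = 0.0036) from a mean of 48.6 in the authors' deposited table. HOXC-AS3, which begins within the first part of HOXC10, lay at 2.43 (SE 0.83, adjusted p = 0.00908) from a mean of 10.7 in the authors' deposited table, with computed group means of 18.1 and 3.35. HOTAIRM1 lies at chr7:27095647-27100265 on the plus strand.

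In the HOXD cluster HAGLR, which starts beside HOXD1 and runs the opposite way, had a mean of 229 and a log2 fold change of -0.79 (SE 0.18, adjusted p = 5.22e-05) by the authors' deposited table. HOXD-AS2, a further antisense RNA of that cluster, was not called at -0.03 (SE 0.30, adjusted p = 0.95) by the authors' deposited table, and its interval from -0.63 to 0.56 leaves out a full log2 unit. The sources used here do not give the strand setting of the authors' counting, so reads of overlapping genes on opposite strands cannot be told apart. In GENCODE release 29 the shared exon sequence was 87 bases for HOXB-AS1 and HOXB2 (3.72% of HOXB2) and 158 for HAGLR and HOXD1 (8.0% of HOXD1). It was 379 bases for HOXD-AS2 and HOXD3, which is 26.5% of the HOXD-AS2 exons, 134 for HOXD3 and HAGLR, and 63 for HOXC-AS3 and HOXC10. HOXB-AS4 and HOXB7 overlap by 4898 bases but share 0 bases of exon. HOXD10 and HOXD11, on the same strand, shared 452 bases, 16.8% of the HOXD10 exons. Reads within that stretch do not tell these genes apart.

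**Figure D4:**
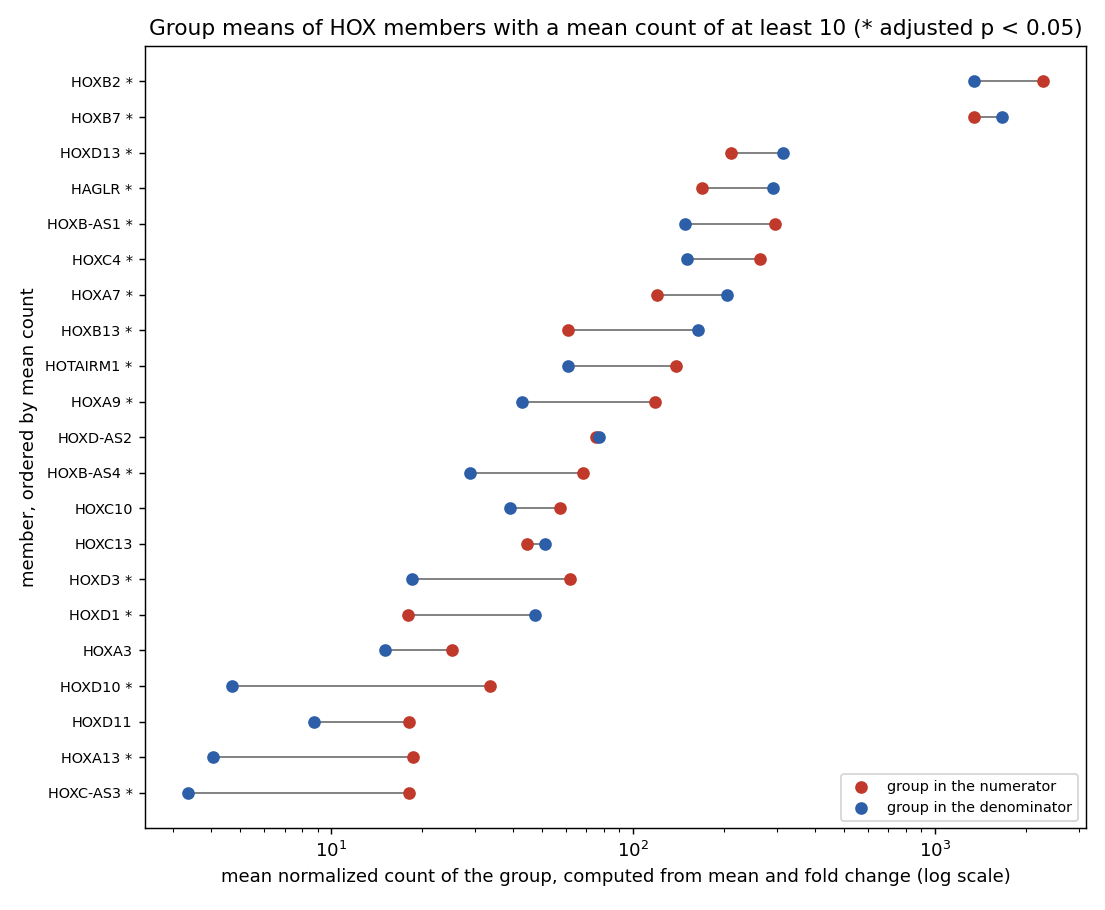
Mean normalized count of each group (horizontal axis, log scale), computed from the mean count and fold change of the authors' deposited table with 3 libraries a group, for 21 members with a mean of at least 10; red is the numerator group, blue the other, lines join the groups of a gene and asterisks mark an adjusted p under 0.05. HOXB2 and HOXB7 lie far to the right of the rest, and HOXD10 has the longest line, from 4.69 to 33.6.

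Genes that flank the clusters were called on both sides. The authors' deposited table lists 17 of them, 9 called negative and 2 positive, and their median was -0.44. Of the 17, 10 had a mean count of 1000 or more, where the authors' deposited table called 50.0% of all genes negative and 33.2% positive. The positive ones were LNPK (0.65, SE 0.06) and the heterochromatin protein gene CBX5 (0.27, SE 0.07) in the authors' deposited table, named after their values were seen. COPZ1, a vesicle coat gene beyond HOXC4, lay at -1.05 (SE 0.07), and MTX2, a mitochondrial import gene beyond HOXD1, at -0.91 (SE 0.08), in the authors' deposited table. CBX1 and SNX11, on the HOXB1 side of its cluster, lay at -0.78 (SE 0.07) and -0.98 (SE 0.08) in the authors' deposited table. Between HOXB-AS4 and HOXB13 the noncoding LINC02086, named after its value was seen, lay at 0.56 (SE 0.22, adjusted p = 0.0294) by the authors' deposited table. None of the 7 microRNA genes sought within the clusters had a value used here.

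HOX proteins bind DNA together with PBX, MEIS and PKNOX cofactors. The authors' deposited table called 2 of these 9 genes positive and 4 negative, against 20.9% and 21.5% of all genes. Their mean counts were under 100 for 3, 100 to 1000 for 4 and higher for 2, and 65.1% of all genes in the middle range were called in the authors' deposited table. PBX3 had a mean count of 4119 and a log2 fold change of -0.66 (SE 0.07, adjusted p = 1.45e-21), by the authors' deposited table. PKNOX1 (-0.86, SE 0.12) and PBX2 (-0.37, SE 0.10) were also negative, and MEIS2 (0.72, SE 0.11) was positive, by the authors' deposited table.

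Chromatin complexes that keep HOX genes silent or active had members on both sides. Of 21 Polycomb genes, which keep them silent, the authors' deposited table called 5 positive and 7 negative, and their median was -0.04. These 12 are 57.1% of the list, below the 65.1% of all genes with means of 100 to 1000 (12 of the 21) and the 83.3% at 1000 or more (9 of the 21) in the authors' deposited table. The catalytic subunit gene RNF2 (-1.19, SE 0.11), its partner BMI1 (-1.10, SE 0.11) and SUZ12 (-0.95, SE 0.09) were negative, and CBX6 (1.28, SE 0.08) was positive, by the authors' deposited table. EZH2, the methyltransferase of that system, was not called at 0.14 (SE 0.08, adjusted p = 0.202) by the authors' deposited table and was named after its value was seen. Trithorax and MLL complexes keep HOX genes active, and KDM6B and DOT1L were listed here with their genes. Of the 14 genes so listed, the authors' deposited table called 4 positive and 8 negative, and their median was -0.29. These 12 are 85.7% of the list, and 11 of the 14 had means of 1000 or more, where 83.3% of all genes were called in the authors' deposited table, so the share is near that background. KDM6B (-1.55, SE 0.08), a demethylase of the Polycomb mark, the scaffold gene WDR5 (-0.96, SE 0.07) and the methyltransferase gene DOT1L (-0.90, SE 0.08) were negative by the authors' deposited table. MEN1, which encodes menin, was positive at 0.84 (SE 0.08) in the authors' deposited table.

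Retinoic acid induces the head-end HOX genes in the embryo. Of 13 listed genes of retinoic acid handling and CDX factors, 1 was called positive and 4 negative by the authors' deposited table. Called genes made up 38.5% of them, near the 42.4% of all genes in the authors' deposited table. DHRS3, a retinal reductase gene, was the positive one at 5.46 (SE 0.23, adjusted p = 3.82e-125) by the authors' deposited table. ALDH1A2, which makes retinoic acid (-0.62, SE 0.18), CRABP2 (-1.74, SE 0.50) and RXRA (-0.45, SE 0.14) were negative by the authors' deposited table. Of 8 CTCF and cohesin genes, which shape the boundaries within HOX clusters, the authors' deposited table called 1 positive and 5 negative, and their median was -0.57. All 8 had means of 1000 or more, where 83.3% of all genes were called and 50.0% called negative in the authors' deposited table. RAD21 (-1.10, SE 0.07), STAG2 (-0.71, SE 0.06), WAPL (-0.69, SE 0.07) and NIPBL (-0.59, SE 0.08) had the smallest adjusted p-values in the authors' deposited table. These lists and the HOX members come from the same libraries, and no relation between them was tested.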

How the data were processed

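The submitters' processing notes name fastp 0.23.2, STAR 2.7.10a, featureCounts, DESeq2 and the hg38 build; for the strand setting and the annotation the sources used here give nothing. The labels' protocols speak of RIP-seq for these total RNA libraries, while GEO types the series as expression profiling. The authors deposited 1 comparison table. Its mean count is a signal scaled by the authors, its fold change and SE are taken as log2 values as DESeq2 reports them, its Wald statistic is a score the authors deposited, and its p-values are the authors' own. Repeated rows were removed (25289 to 25287). The deposited adjusted p matches Benjamini-Hochberg over these genes within 1.39e-15. An edgeR fit had been planned for values per library and was replaced by the authors' DESeq2 Wald test, since none were used. Intervals reach 1.96 SE to either side of the log2 value. Exons and coordinates are from GENCODE release 29 (GRCh38); promoters are from RefSeq (GRCh38.p14). The shifted Wald test was tested on simulated data. Every listed member enters the counts and medians, and the values of 1 are not reported here; of other lists, up to 4 genes with the smallest adjusted p could be named. Members and lists were chosen with earlier results of these data known. Python 3.11.15, pandas 2.3.3 and scipy 1.17.1 were used.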

Additional observations from a re-analysis of the deposited data

How the results depend on the processing

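No paired analysis was possible because the table holds 1 comparison with no values per library; leaving out each replicate, a replicate block and DESeq2 on counts were not run for the same reason. The counts of called HOX members, in all and per cluster, stayed within 1.5 times under an adjusted p of 0.01, a minimum mean count of 10, an unadjusted p and both shifts. Not all of these settings put the counts to a test. An unadjusted p cannot lower them, no called member had a mean under 10, and the median shift was 0.0037. Requiring a log2 value of 1 or more in size, the negative calls fell from 7 to 3 in all, the negative calls of HOXA, HOXB and HOXD to 1 each, and the positive calls of HOXB and HOXC to 1 each. Equal total counts in the groups shift fold changes by 0.12, and no member's call or direction changed, nor did it with the median of genes at 0. Medians depend on the level of the members, set against their median SE. With members of at least 100 mean counts they were -1.13 for HOXA, 0.23 for HOXB, -0.68 for HOXD and -0.997 for paralogue groups 9 to 13, so HOXA, HOXD and that range change sign; these medians rest on 2 to 4 members each. With protein-coding members alone they were 0.12 for HOXB, 0.18 for HOXC and 0.94 for HOXD. A minimum mean of 10 took the HOXD median to -0.03. The cause was not tested. Low counts limit 5 members to SE values of 1.10 to 1.93.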
